A study of Mus musculus with 2 samples.

Results

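The genes described here are the cytoplasmic actins and the small proteins that bind actin monomers or sever filaments. They were Actb and Actg1, the beta-thymosins Tmsb4x and Tmsb10, the cofilin family members Cfl1, Cfl2 and Dstn, and the profilins Pfn1 and Pfn2. They were chosen by symbol, and all 9 were matched among the 43346 genes of the deposited tables. RNA came from the forebrain of newborn B6NCrl mice at postnatal day 0, with 1 library from pup 1 and 1 from pup 3. Each library was made from 13 pg of RNA over 200 nt, labelled as 1 cell-equivalent, by a Smart-seq protocol, in which poly(A) RNA is copied and amplified before sequencing. The sample descriptions nevertheless call the libraries total RNA-seq. The labels give no treatment, transgene or mutation and no sex, and they give both pups the same donor identifier. Both libraries form 1 group, so there was no contrast between conditions and no test.

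Actin monomers join into filaments that give growing axons, dendrites and migrating neurons their shape. Beta-thymosins hold monomers in reserve, profilins load them with ATP and pass them to growing filament ends, and cofilins sever old filaments and return monomers to the pool. Newborn cortex is rich in growth cones, the motile tips of axons, where this cycle runs fast.

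The total expected counts, which are estimated reads per gene, were 41082811 in pup 1 and 29881397 in pup 3. ERCC spike-ins, synthetic RNAs added to the sample, took 4.46% and 7.30% of TPM. TPM is a transcript level corrected for length and summing to an equal total everywhere. Pup 1 had 9048 nuclear protein-coding genes that reached 1 TPM, and pup 3 had 6210. All 6 neuron markers were found in both pups, 5 of 8 forebrain markers were, and none of the 5 hindbrain markers was found in either. The summed neuron markers were 10888 and 5435 TPM. Tubb3 (6275 and 1872 TPM) held most of that difference, 4 of the 6 were within 2-fold, and the median log2 ratio of the list was -0.30. Snap25 was also at least 2-fold lower in pup 3, at 433 and 121 TPM, and Gap43 had 2242 and 1514 TPM. Stmn2 was near level, at 1786 and 1738 TPM, and Syt1 and Elavl3 were higher in pup 3. All values below rest on 1 library a pup, so animal and technical spread cannot be told apart. In tissue RNA, fewer cells of a type and less RNA per cell cannot be told apart either.

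The coding sequences of the beta-thymosins are shown because they are whole, short and let the 2 members of a family be compared base by base. Both are 135 bases long in GENCODE M21, and 95 bases are identical (70.4%). They are printed 5′ to 3′ with the 40 bases that differ between the 2 genes in capitals.
Tmsb4x: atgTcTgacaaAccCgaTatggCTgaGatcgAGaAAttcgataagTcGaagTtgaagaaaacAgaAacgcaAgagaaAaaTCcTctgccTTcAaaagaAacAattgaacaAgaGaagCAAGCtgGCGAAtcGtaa
Tmsb10: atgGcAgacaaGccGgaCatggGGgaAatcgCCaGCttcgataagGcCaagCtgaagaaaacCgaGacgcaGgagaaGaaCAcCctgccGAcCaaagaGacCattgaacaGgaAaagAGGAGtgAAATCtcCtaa
The differing bases are spread over the whole frame. Actb and Actg1 were closer, with 88.7% identity over 1128 coding bases, and Pfn1 and Pfn2 were further apart, with 61.5% over 423.

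The 3 cofilin family members are shown by their first 60 coding bases. These hold the codon for the serine that LIM kinases act on to switch the proteins off. That codon, the third, is in capitals.
Cfl1: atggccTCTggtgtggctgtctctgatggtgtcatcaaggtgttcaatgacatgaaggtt
Cfl2: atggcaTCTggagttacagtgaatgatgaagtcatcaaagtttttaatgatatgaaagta
Dstn: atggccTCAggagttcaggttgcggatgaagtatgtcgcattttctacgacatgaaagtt
All 3 carry a serine codon there, TCT in Cfl1 and Cfl2 and TCA in Dstn. Over aligned bases, identity was 71.9% between Cfl1 and Cfl2, 72.2% between Cfl1 and Dstn and 67.7% between Cfl2 and Dstn. The annotated Cfl1 frame is 684 bases long against 501 in Cfl2 and 498 in Dstn, and the surplus bases have no partner in the alignments.

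All 9 genes were found in both pups at TPM of 1 or more, against 53.3% of the nuclear protein-coding genes found in either pup. That share includes many low genes, whereas the lowest mean among the 9 was 144 TPM (Cfl2). Together the 9 genes took a share of 2.17% in pup 1 and 2.41% in pup 3. The summed level was 22925 ± 1708 TPM (SD, n = 2). The actins, thymosins and Cfl1 had means of 2671 TPM (Cfl1) or more, and the profilins, Dstn and Cfl2 had means of 545 TPM (Pfn2) or less.

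**Figure D1:**
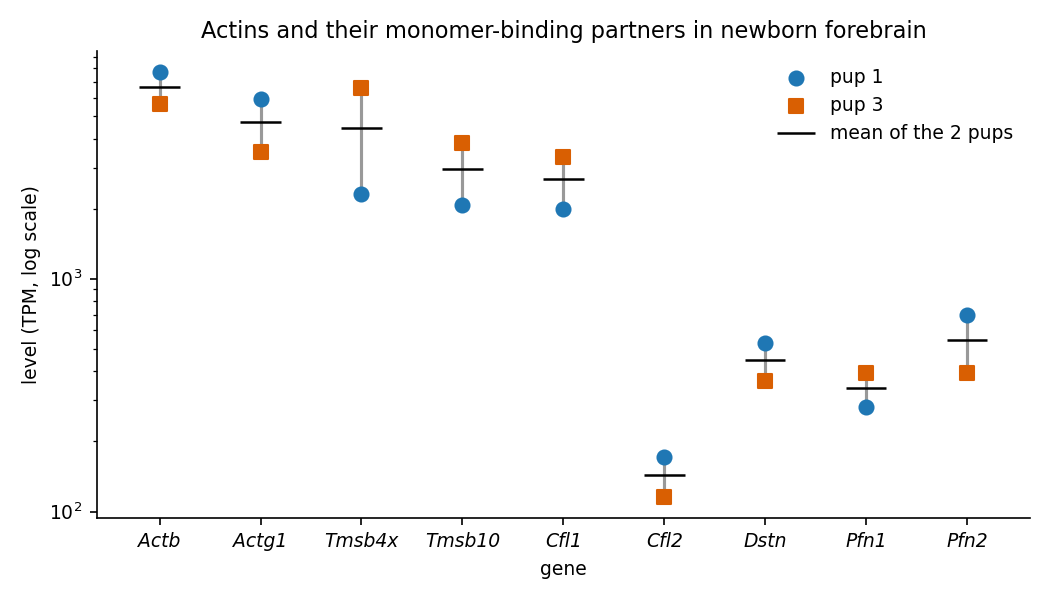
Level of each gene in TPM on a log scale. Circles are pup 1, squares pup 3 and bars the mean of the 2 pups. Under the TPM scaling shown, Tmsb4x, Tmsb10, Cfl1 and Pfn1 were higher in pup 3 and the other 5 genes were lower, but Pfn1 was lower in pup 3 when reads were scaled to spike-in reads.

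Actb, which encodes beta-actin and lies at chr5:142903115-142906754 (mm10), had the highest mean level, with 7727 TPM in pup 1 and 5645 TPM in pup 3. It ranked 2 among nuclear protein-coding genes in pup 1 and 5 in pup 3. Its mean was 6686 ± 1472 TPM (SD, n = 2). Actg1, which encodes gamma-actin and lies at chr11:120345690-120348542, had 5931 TPM in pup 1 against 3497 TPM in pup 3. Pup 1 was thus the higher library for both actins, by 1.37 times for Actb and 1.70 times for Actg1. Their sum was 13658 TPM in pup 1 against 9142 TPM in pup 3.

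The beta-thymosins were higher in pup 3. Tmsb4x, at chrX:167207093-167209315, had 2308 TPM in pup 1 and 6563 TPM in pup 3, a ratio of 2.84. It ranked 21 in pup 1 and 3 in pup 3, above both actins in that library. Tmsb10, at chr6:72957347-72958748, had 2072 TPM in pup 1 and 3820 TPM in pup 3, a ratio of 1.84. The pair differed little in pup 1 and by more in pup 3.

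Within the cofilin family, Cfl1, the non-muscle cofilin, dominated in both pups. Cfl1, at chr19:5490455-5495201, had 2002 TPM in pup 1 and 3340 TPM in pup 3. Dstn, which encodes destrin, the third family member, lies at chr2:143915320-143943324 and had 528 TPM in pup 1 and 365 TPM in pup 3. Cfl2, known as the muscle cofilin, lies at chr12:54858809-54862877 and had 171 TPM in pup 1 and 116 TPM in pup 3. Cfl1 was therefore 1.67 times higher in pup 3, while Dstn and Cfl2 were 1.45 and 1.48 times higher in pup 1.

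The profilins also went opposite ways on the TPM scale. Pfn1, the widely expressed profilin, lies at chr11:70651850-70654644 and had 281 TPM in pup 1 and 395 TPM in pup 3. Pfn2, the profilin known as enriched in brain, lies at chr3:57841895-57848079 and had 698 TPM in pup 1 and 392 TPM in pup 3. Pfn2 was well above Pfn1 in pup 1, and the 2 were level in pup 3.

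Ordered by mean level, the genes ran Actb, Actg1, Tmsb4x, Tmsb10, Cfl1, Pfn2, Dstn, Pfn1 and Cfl2. The 2 values of neighbouring genes overlapped in range, except between Cfl1 and Pfn2 and between Pfn1 and Cfl2. Pup 1 showed the order of the means. In pup 3 the order was Tmsb4x, Actb, Tmsb10, Actg1, Cfl1, Pfn1, Pfn2, Dstn and Cfl2.

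In all, 4 of 9 genes were higher in pup 3 and 5 were lower. The background was 2797 nuclear protein-coding genes whose mean over the pups reached 50 TPM, and 53.4% of them were higher in pup 3. At least 2-fold higher in pup 3 was 1 of 9, Tmsb4x, where the background was 23.6%. None of the 9 was at least 2-fold lower, where the background was 19.7%. Of the 259 genes whose mean reached 500 TPM, 11.2% were at least 2-fold higher. At least 1.5-fold apart in either direction were 5 of 9, against 63.9%. In TPM, the shares of these genes past each fold do not exceed the shares of the 2797. In FPKM, 3 of 9 were at least 2-fold higher, against 30.0%. Scaled to spike-in reads, 5 of 9 were at least 2-fold lower, against 39.7%. As a log2 ratio on TPM + 1, pup 3 over pup 1, the median was -0.45 over the 9 genes and 0.12 over the 2797.

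The deposited credibility bounds cover read sampling and read assignment within 1 library. They were narrow for these genes. For Tmsb4x the posterior mean was 2261 TPM (2239 to 2282) in pup 1 and 6415 TPM (6374 to 6455) in pup 3. For Cfl2, the lowest gene, it was 168 TPM (165 to 171) and 113 TPM (111 to 116). The bounds of the pups did not overlap for any of the 9, and they did not for 93.7% of the background genes, a share near that of the 9.

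A scaling shifts all genes of a library together. Reads scaled to spike-in reads moved the median of all 2797 genes from 0.12 to -0.65 on the log2 scale, and FPKM moved it to 0.38. Pfn1 was higher in pup 3 under the other scalings, but its ratio was 0.861 when scaled to spike-in reads. Tmsb4x, Tmsb10 and Cfl1 stayed higher in pup 3 under all 7 scalings run, with ratios of 1.74 to 3.41, 1.13 to 2.21 and 1.02 to 2.00. Actb, Actg1, Cfl2, Dstn and Pfn2 stayed lower in all 7. On the spike-in scale Tmsb4x no longer reached 2-fold, and these 5 genes were at least 2-fold lower, as were 39.7% of the 2797. Relative to the median of all genes, Pfn1 lay above it in all 7, by 0.38 to 0.44. That place barely changes with the scaling, because a scaling shifts the median along with the gene.

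The balance within each family also differed between the pups. Actb made up 56.6% of the summed TPM of both actins in pup 1 and 61.8% in pup 3. Tmsb4x made up 52.7% and 63.2% of the beta-thymosins. Cfl1 made up 74.1% and 87.4% of its family, with Dstn at 19.5% and 9.56% and Cfl2 at 6.34% and 3.03%. Pfn1 made up 28.7% of the profilins in pup 1 and 50.2% in pup 3. A share within a family does not depend on the library's scaling, although it does depend on the correction for transcript length.

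**Figure D2:**
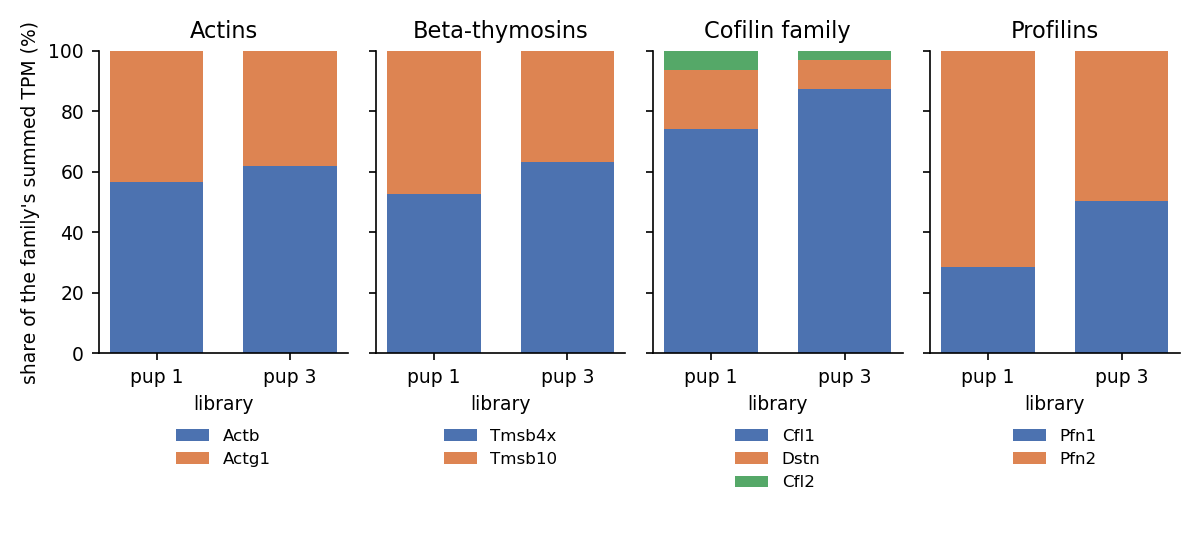
Share of each family's summed TPM, in percent, taken by each gene in each pup. Stacked segments are genes, and Pfn1 rises from 28.7% in pup 1 to 50.2% in pup 3 while the Actb share differs by about 5.17 percentage points.

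Between families, the balance of actin to its binding partners differed most for the thymosins. In TPM, actin transcripts outnumbered beta-thymosin transcripts 3.12 to 1 in pup 1, and stood at 0.880 to 1 in pup 3. Against the cofilin family the ratio was 5.06 in pup 1 and 2.39 in pup 3. Against the profilins it was 14.0 and 11.6. Over all 7 binding partners together, actins stood at 1.69 to 1 in pup 1 and 0.610 to 1 in pup 3. These ratios depend on the correction for transcript length. Of uncorrected reads, actins took 1.60% and beta-thymosins 0.163% in pup 1, against 1.27% and 0.480% in pup 3.

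The direction of the 9 genes went with transcript length. Tmsb10, Tmsb4x, Pfn1 and Cfl1, with transcripts of 570 to 1148 bases, were higher in pup 3, with Pfn1 the exception on the spike-in scale. Pfn2, Actb, Actg1, Dstn and Cfl2, with 1827 to 2940 bases, were lower. Spearman's rho between length and log2 ratio was -0.70 over the 9 genes, a description over points from the same libraries. Over the 2797 background genes rho was -0.16, and over the 259 that reached 500 TPM it was -0.35.

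The background medians fell with length as well. The median log2 ratio was 0.40 for the 588 background genes under 1000 bases and -0.26 for the 403 of 3000 bases or more. Tmsb4x, at 1.51, and Tmsb10, at 0.88, lay above the median of their length range. Pfn1, in the same range, was nearer to that median, at 0.49. Cfl1, at 0.74, lay above the median of its range, 0.22 for 1000 to under 1500 bases. Actb, at -0.45, Actg1, at -0.76, Dstn, at -0.53, and Pfn2, at -0.83, lay below the median of theirs. That median was 0.05, for 1500 to under 2000 bases. Cfl2, at -0.56, lay below the -0.12 for 2000 to under 3000 bases. The part of length in the differences between these genes was not tested.

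**Figure D3:**
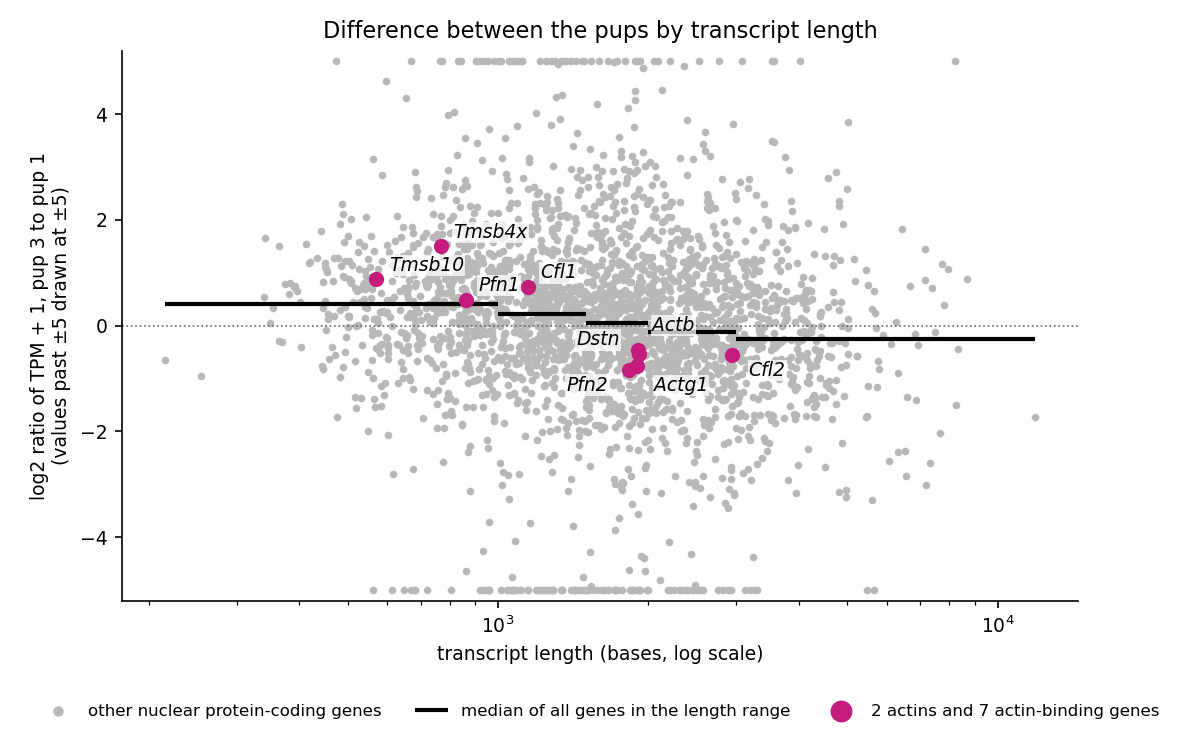
Log2 ratio of TPM + 1, pup 3 to pup 1, against transcript length in bases on a log scale, for the 2797 background genes. Black bars are medians by length range, falling from 0.40 to -0.26. The 4 shorter named genes lie above 0 and the 5 longer ones below, although Pfn1 falls below 0 on the spike-in scale.

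Markers of other cells that the tissue could hold also differed, among them microglia and platelets, which are known for high thymosin levels. The 8 microglia markers summed to 269 TPM in pup 1 and 114 TPM in pup 3, with C1qa, Csf1r, Tyrobp and Aif1 at 0 in pup 3 and P2ry12 at 0 in both. Only C1qb of this list reached 1 TPM in both libraries. It had 2736 and 1476 reads (104 and 64.4 TPM), a difference within 2-fold, and was the highest of the 8 in each library. Cx3cr1 had only 5 reads in pup 1 and 0 in pup 3. C1qc went the other way, with 0 reads in pup 1 and 1257 reads in pup 3. The 6 endothelium markers summed to 65.3 and 209 TPM, with Kdr at 0 in both and Cdh5 at 8.21 and 0 TPM, and the 6 erythroid markers to 1750 and 3276 TPM. The 3 platelet markers summed to 45.3 TPM in pup 1 and were at 0 in pup 3. The mural and smooth muscle list of 6 genes summed to 36.5 and 34.8 TPM, with Tagln at 0 in both. Its members went opposite ways, with Pdgfrb at 26.9 and 0 TPM, Cspg4 at 5.29 and 0.01 TPM, Rgs5 at 4.15 and 15.1 TPM and Myh11 at 0.01 and 19.6 TPM. Zeros in pup 3 were not particular to these markers. Both pups shared 53.3% of the 9953 nuclear protein-coding genes that reached 1 TPM in any pup. Among all 9657 nuclear protein-coding genes whose mean reached 1 TPM, 48.7% were at least 2-fold lower in pup 3 and 23.6% higher. At that level 4 of 6 microglia markers were lower and 1 was higher. The part of these other cells in the levels of the 9 genes was not tested.

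At the level of transcripts, 6 of the 9 genes had 2 or more listed transcripts, and Cfl1, Cfl2 and Dstn had 1. GENCODE M21 lists 4 transcripts for Cfl1 and 6 for Cfl2, so further forms were not separated here. In 5 of the 6, a single transcript held at least 90% of the gene in both pups. A main transcript share that differed by 10 percentage points or more was seen in 1 of the 6, Actg1. Among genes with 2 or more transcripts, the background was 54.8% where the gene's mean reached 50 TPM and 20.6% where it reached 500 TPM.

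Actg1 was split between 2 long transcripts. Actg1-202, at chr11:120345690-120348542, held 71.2% of the gene in pup 1 and 53.0% in pup 3. Actg1-204, at chr11:120345691-120348091, held 27.8% and 46.9%. In TPM, Actg1-202 was 4224 in pup 1 and 1854 in pup 3, while Actg1-204 was 1648 and 1640. As the reads were assigned, the lower Actg1 level of pup 3 lay in Actg1-202. The 2 share their coding exons and differ at the 5′ end. Actg1-202 has 6 exons, of which the first, at chr11:120348425-120348542, is non-coding, and Actg1-204 has 5. Actg1-204 lies within the span of Actg1-202 and is shorter, at 1827 against 1952 bases. The split between them thus rests largely on reads at the 5′ end. How evenly each library covered that end was not tested.

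Several minor transcripts of Actb and the thymosins had higher levels in pup 3. Actb-201 held 99.8% of Actb in pup 1 and 96.8% in pup 3. Its retained-intron transcripts Actb-204 and Actb-205 together held 0.0802% and 2.25%. The 3 retained-intron transcripts of Actg1 went the other way, at 0.828% and 0.0212%. Across background genes, retained-intron transcripts took 3.72% of the genes' TPM in pup 1 and 4.34% in pup 3. The median gene with such a transcript went from 0.415% to 0.223%, with 534 genes higher and 658 lower in pup 3. Strand use in counting is not given in the sources used here.

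Tmsb4x-201 held 99.98% and 98.0% of Tmsb4x. The first exon of Tmsb4x-203, at chrX:167209008-167209149, starts inside that of Tmsb4x-201, at chrX:167209106-167209315, and ends further downstream. Tmsb4x-203 was listed at 0 in pup 1, where its upper bound was 3.62 TPM. In pup 3 it stood at 129 TPM (92.9 to 163). Tmsb10-202 had 8.41 TPM in pup 1 against 53.9 TPM in pup 3, beside 2061 and 3762 TPM for Tmsb10-203. These minor forms made up little of the difference in either gene.

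**Figure D4:**
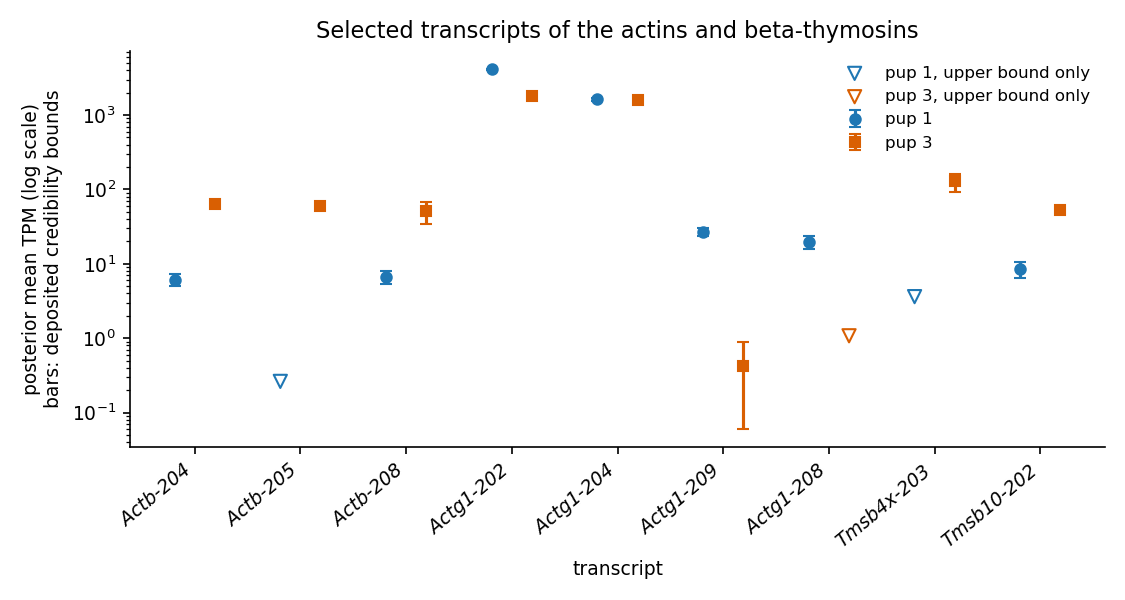
Posterior mean TPM on a log scale for the transcripts of actins and beta-thymosins with a mean of 10 TPM or more, leaving out main transcripts that held 90% of their gene, with the deposited credibility bounds as bars. Circles are pup 1, squares pup 3, and open triangles are upper bounds where the lower bound is under 0.01. By the estimated split of reads, Actg1-204 sits at nearly the same level in both pups, while Actg1-202 is lower in pup 3.

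Read sharing with other genes concerned mainly Actg1 and Tmsb10. Processed pseudogenes are copies of spliced mRNAs in the genome and abound for the actins. Of 100-base windows in the main transcript, 51.1% of those in Actg1-202 also occurred in other genes, mostly in Gm12715. The share was 27.8% for Tmsb10, mostly with Gm9844, 1.10% for Actb, 0.858% for Cfl1 and 0 for Tmsb4x, Cfl2, Dstn, Pfn1 and Pfn2. The Pfn2 transcript has another length in that annotation than in the deposited tables.

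The reads assigned to the copies were few. Of 14 pseudogenes that matched the 9 genes at 90% identity or more, 8 had reads. The 6 Actg1 copies held 2787 reads in pup 1 and 1398 in pup 3, beside 284234 and 145335 for Actg1. Gm9844, which is annotated as protein-coding, held 112 and 216 reads beside 25913 and 41838 for Tmsb10. The deposited posterior SD of the Actg1 reads was 95.1 and 60.2. The split between Actg1 and Gm12715 rests on the authors' counting and is uncertain to the extent that the windows are shared.

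The start of Actg1 holds a CArG box, the site type bound by serum response factor (SRF), whose coactivators are released when actin monomers are used up. It is shown because several actin genes are known SRF targets. The stretch below, from RefSeq (GRCm38.p6), lies at chr11:120348551-120348610 on the minus strand, with the box in capitals.
Actg1: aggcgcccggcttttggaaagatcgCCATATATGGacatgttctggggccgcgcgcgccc
The CArG box was searched by its consensus of 10 bases, which reads the same on both strands, from 250 bases before to 50 after each start. It was present in 1 of 10 windows of 8 of these genes, and in 1.63% of 32851 windows. It ended 80 bases before the Actg1 start that RefSeq gives, position 120348495, and 33 bases before the GENCODE start of Actg1-202, position 120348542. A match is a description of the letters and not evidence of binding. The Actb window was not analysed here.

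For each gene, the nuclear protein-coding gene nearest in level over the 2 libraries was found by the distance of log2(TPM + 1). Actb was nearest to the ubiquitin gene Ubb (7685 and 4989 TPM), and Actg1 to the elongation factor gene Eef1a1 (6675 and 3392 TPM). Tmsb4x was nearest to the cyclophilin gene Ppia (2922 and 5673 TPM). Tmsb10 and Cfl1 shared the calmodulin gene Calm2 (2298 and 3533 TPM). Dstn was nearest to Crmp1, Cfl2 to Sptlc2, Pfn1 to Mlf2 and Pfn2 to Rps6. Over 2 libraries such a match describes only a pair of levels.

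The other actins were low beside Actb and Actg1. Acta1, the skeletal muscle actin, had 18.8 TPM (664 reads) in pup 1 and 1 read in pup 3. Acta2, the smooth muscle actin, had 0.13 TPM in both pups, from 6 and 5 reads. Actc1, the cardiac actin, had 2.39 and 1.44 TPM, and Actg2 had 0 reads in both. Of the actin-related proteins, the dynactin subunit Actr1a was at 227 and 402 TPM and Actr1b at 144 and 98.3 TPM. Actl6b, a subunit of the neuronal BAF chromatin complex, was at 354 and 55.3 TPM.

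The other thymosins and profilins were far below the 4 named ones. Tmsb15b2 had 49.98 and 69.2 TPM, Tmsb15b1 had 23.4 and 59.7 TPM, and Tmsb15l had 0.39 and 31.7 TPM. Pfn4 had 5.06 TPM in pup 1 but 0 reads in pup 3, and Tmsb15a and Pfn3 had 0 reads in both. The exact 95% Poisson interval of a count of 0 runs up to 3.69 reads.

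Around these 9 genes, 110 further genes of the actin pathway were matched in 9 lists. Of the 92 whose mean reached 1 TPM, 14 were at least 2-fold higher in pup 3 and 39 were at least 2-fold lower. The background at that level was 23.6% higher and 48.7% lower of 9657 genes. The median log2 ratio was -0.64 over the 92 and -0.82 over the 9657. Of the 41 whose mean reached 50 TPM, 5 were higher and 12 lower, with a median of -0.49 against 0.12. The background there was 23.6% higher and 19.7% lower of the 2797.

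Among proteins that start branched filaments, the Arp2/3 complex and its activators, none of 20 was at least 2-fold higher in pup 3 and 10 were lower. Arpc4 had 666 and 327 TPM, Arpc5 398 and 427 TPM, and Brk1, a subunit of the WAVE activator complex, 467 and 169 TPM. The formins, Ena/VASP and other nucleators counted 1 higher and 6 lower of 11. Evl stood at 74.98 and 53.0 TPM, Fmn2 at 26.0 and 12.9 TPM and Diaph1 at 17.0 and 14.0 TPM. Both lists had more genes lower than higher, as did the 9657 genes at that level, with 23.6% higher and 48.7% lower.

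Capping and severing proteins, which close filament ends or cut filaments, counted 0 higher and 5 lower of 10. Of the 9657 genes whose mean reached 1 TPM, 23.6% were higher and 48.7% lower. Capzb stood at 465 and 186 TPM, Capza2 at 403 and 321 TPM and Tmod2 at 112 and 143 TPM. The filament binding and bundling list counted 5 higher and 7 lower of 17. Its highest members were the myosin light chains Myl6, at 615 and 1122 TPM, and Myl12b, at 475 and 456 TPM, with the tropomyosin Tpm3 at 344 and 353 TPM.

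The kinases and phosphatases that set cofilin activity were low beside Cfl1, with 2 higher and 5 lower of 10. The background at that level was 23.6% higher and 48.7% lower of 9657 genes, here and for the next list. Pak1, which activates LIM kinases, had 230 and 58.3 TPM, Pak3 149 and 114 TPM, and Limk2 52.7 and 44.3 TPM. The other monomer-binding and cofilin-assisting proteins counted 3 higher and 2 lower of 11. Of these coronins, Coro1b had 179 and 171 TPM, Coro1a 153 and 159 TPM and Coro1c 154 and 101 TPM. Of SRF and its coactivators, Mrtfb had 27.6 and 21.8 TPM, Srf had 5.62 TPM in pup 1 but 0 reads in pup 3, and Mrtfa had 8 reads in pup 1 and 0 in pup 3.

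**Figure D5:**
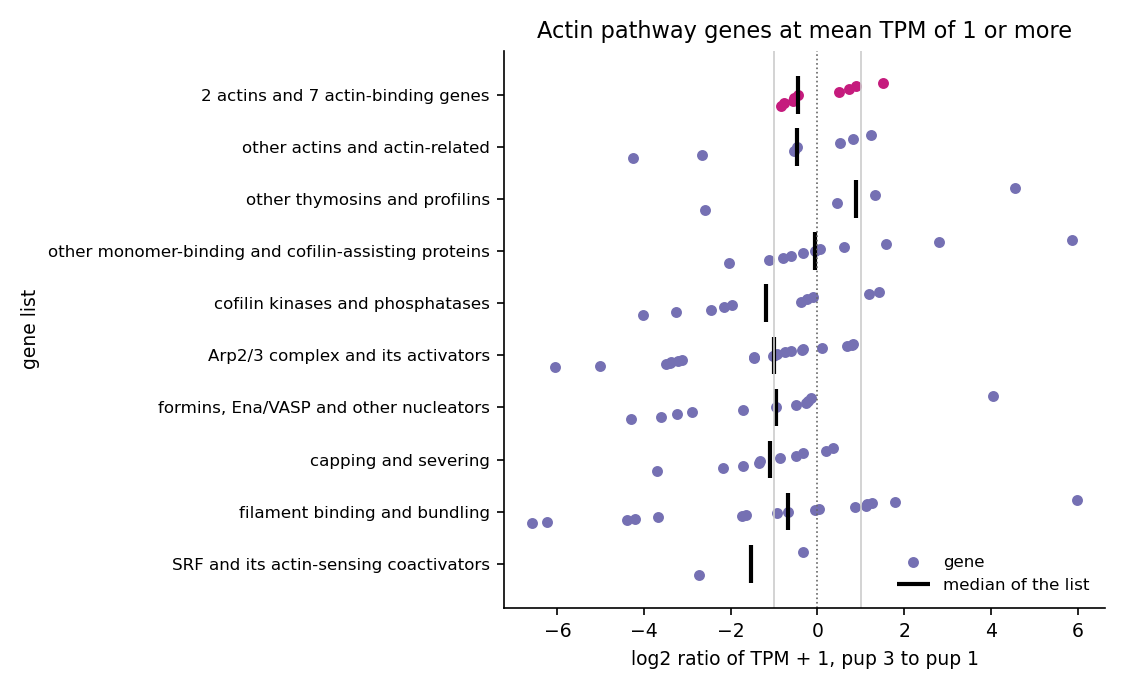
Log2 ratio of TPM + 1, pup 3 to pup 1, for actin pathway genes whose mean reached 1 TPM, by list. Points are genes, black bars are list medians and grey lines mark 2-fold. The 9 named genes span -0.83 to 1.51, while the Arp2/3 list has no gene at least 2-fold higher in pup 3. Of all 9657 nuclear protein-coding genes at that level, 23.6% were at least 2-fold higher and 48.7% lower.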

How the data were processed

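RNA of 2 newborn forebrains was measured in 1 library each. The authors deposited expected counts, TPM with a posterior mean and credibility bounds, FPKM and, per transcript, the percent of its gene, with column names as RSEM writes them, per the file headers. The deposited bounds and posterior SDs were read as scores on the scale of TPM and of reads. What aligner, strand setting and level of bounds were used is not given in the sources used here. The build is mm10 and the annotation M4, per the text deposited beside the tables. Symbols, biotypes and sequences came from GENCODE M21 on the same assembly, by identifier without version, and 98.0% of genes matched.

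The genes and lists were chosen with earlier results of these data known. The 9 genes, the 3 highest of each list, the muscle actins, the other thymosins and profilins, the nearest gene of each member and transcripts at 1% or more of their gene were named by rule. Minor transcripts below that share were chosen after their values were seen, as was the rule of the transcript plot. Log2 ratios used TPM + 1 and understate the change of low genes. The ratio step was tested on simulated data. Pseudogenes were matched with BLAST+ 2.17.0 at 90% identity over 50% of their length or more. Scripts ran in Python 3.11.15 with scipy 1.17.1, Biopython 1.88, numpy 2.4.6 and pandas 2.3.3, with edgeR 4.0.16 and DESeq2 1.42.0 for size factors only, on counts rounded to whole numbers. Alternatives covered the scaling, pseudocount, thresholds, pseudogene copies and each pup alone. Pdxp did not match and was left out. The reads carry no molecular identifiers in these tables, so bounds and the limit of 3.69 reads cover counting error only.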

Additional observations from a re-analysis of the deposited data

How the results depend on the processing

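Of 47 values recomputed with both pups under another setting, 34 stayed within 1 SD of the pups or, for counts, within 1.5 times. That number says little about stability, because some settings could hardly move a value. Detection could not differ at TPM of 10 or 0.1, as the lowest level was 116 TPM (Cfl2, pup 3). The SD of 2 pups is wide, so the mean Dstn share counted as unmoved at 20.9% from expected counts, against 14.6% in TPM. So did 3 genes higher in pup 3 with spike-in scaling, against 4 in TPM, although Pfn1 reversed. The count of genes at least 2-fold apart, 1 higher and 0 lower in TPM, was 3 higher and 0 lower in FPKM, where 30.0% of the 2797 genes were higher and 16.1% lower. It was 0 higher and 5 lower when reads were scaled to spike-in reads, a setting chosen after seeing the data, where 11.2% were higher and 39.7% lower. Past 1.5-fold were 5 genes. With spike-in scaling the median log2 ratio was -1.19, against a median of all genes of -0.65. Both settings move all genes of a library by nearly 1 factor. The share of background genes at least 2-fold apart was 43.3%, 75.9% with no filter and 21.2% at mean TPM of 500 or more. The summed share was 2.29% and became 2.59% without spike-ins and mitochondrial genes, which take part of the total. From expected counts, which are not corrected for length, the mean share was 66.0% for Tmsb4x, 68.6% for Cfl1, 10.5% for Cfl2 and 22.9% for Pfn1, against 58.0%, 80.8%, 4.69% and 39.4% in TPM. The main transcript share in posterior mean TPM was 99.5% for Pfn1 and 99.8% for Pfn2, since the posterior mean gives a little to every listed transcript. No paired analysis was possible because there is 1 group with 1 library a pup. With 2 libraries, leaving one out gives the value of the other pup, which the text prints, and says nothing about stability.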
